A study of Mus musculus with 6 samples.

Results

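The genes described here encode the proteins of the cytosolic ribosome. They were taken as the rows of the table of chronic replicate 1 whose symbol starts with Rps or Rpl, leaving out the Rps6k kinases, and were matched to the other 5 tables by Ensembl identifier. The rule found 101 of 18189 rows, and 90 of the 101 were listed in all 6 tables, among 14450 genes listed in all of them. The 101 members comprise 31 genes of the small subunit, 46 genes of the large subunit, 9 paralogs or genes of similar name and 15 rows with pseudogene names. All 77 subunit genes, 7 of the 9 paralogs and 6 of the 15 pseudogenes were listed in every table, and the number listed per table ran from 92 in acute replicate 2 to 101. All 101 had an entry in the GENCODE M21 annotation of the mm10 genome, and they lay on 20 chromosomes.

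The values are unique molecular identifiers (UMIs), each standing for 1 captured transcript end, from droplet-based 3′ single-cell RNA sequencing of the bladder mucosa of wild type C57BL/6 mice aged 8 weeks. Healthy mice received no drug, the acute group was harvested 48 hours after cyclophosphamide (CPP), a drug whose breakdown products damage the bladder lining, and the chronic group received 4 rounds of CPP within 11 days and was harvested 48 hours after the last. Each group had 2 libraries and drew on several mice, males and females, so the spread between libraries is not the spread between single mice. The libraries held 54604108 to 111985680 UMIs in 5348 to 15062 barcodes, with a median of 5530 to 9138 UMIs per cell.

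Each eukaryotic ribosome holds a single copy of nearly every one of these proteins, in a small subunit that decodes the mRNA and a large subunit that joins amino acids. Most of their mRNAs start with a cytosine and a run of pyrimidines, the 5′ terminal oligopyrimidine (TOP) tract, through which growth signals set how many of them are translated. A few members have paralogs that are regulated apart from the parent gene, and some free ribosomal proteins, Rpl5 and Rpl11 among them, bind Mdm2 and so stabilise p53. The urothelium of the bladder is layered, with basal cells at the bottom, intermediate cells above them and superficial umbrella cells facing the urine.

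The start sites of 6 subunit genes and 3 paralogs are shown, all of them genes described in the comparisons that follow. Rps27, Rps6 and Rpl28 were picked from the subunit genes with a tract at the annotated start and Rps28, Rpl18 and Rpl5 from those without, so the lines do not show how common the tract is. Each line gives 30 bases of the RefSeq promoter table (GRCm38.p6, 15 bases before the annotated start and 15 from it on, in the direction of the gene). Capitals mark a C at the annotated start together with an unbroken run of at least 4 bases of C or T after it.
Rps27 (chr3:90213634-90213663, minus strand): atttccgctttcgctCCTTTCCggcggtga
Rps6 (chr4:86857353-86857382, minus strand): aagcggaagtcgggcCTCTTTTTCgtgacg
Rpl28 (chr7:4792950-4792979, plus strand): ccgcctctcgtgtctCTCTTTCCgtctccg
Rps28 (chr17:33824548-33824577, minus strand): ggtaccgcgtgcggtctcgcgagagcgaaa
Rpl18 (chr7:45718056-45718085, plus strand): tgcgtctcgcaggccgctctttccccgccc
Rpl5 (chr5:107900513-107900542, plus strand): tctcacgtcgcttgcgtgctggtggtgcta
Rps27l (chr9:66946071-66946100, plus strand): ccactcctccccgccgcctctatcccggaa
Rpl22l1 (chr3:28805493-28805522, plus strand): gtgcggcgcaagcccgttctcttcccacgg
Rpl7l1 (chr17:46782642-46782671, minus strand): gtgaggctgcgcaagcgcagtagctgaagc
A C at the annotated start followed by at least 4 bases that are each C or T was found in 13 of the 57 subunit genes matched to the table (22.8%), of 77 in all, and in 813 of all 27025 genes of the table (3.01%). Allowing the C to lie up to 5 bases from the annotated start, before or after it, gave 27 of 57 subunit genes (47.4%) against 21.2% of all genes. Of the 9 paralogs or genes of similar name, all matched, 1 had the tract at the start (Rps27rt) and 3 had it within 5 bases (Rps27rt, Rps27l and Rpl22l1). A gene with several annotated starts was counted if any of them held the tract. Only the strand of the gene was searched, and annotated starts can miss the true start by a few bases, so the letters describe these windows and not the mRNAs.

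Some libraries stood apart in the member counts, in every cell class alike. In acute replicate 2, whose table follows a newer annotation, Rpl13a had 949.7 CPM (UMI counts scaled to the same total in each library) over the whole table, against 6770 to 10890 in the other 5. At this locus the gene Gm45713 (chr7:45125922-45136231, minus strand) overlaps Rpl13a (chr7:45125558-45128761) on the same strand. Rpl15 had 3851 CPM in that library and 1901 in chronic replicate 2, against 482.9 to 876 elsewhere. The levels of Rpl13a, Rpl15, Rpl36al, the Rps27 copy Rps27rt and the pseudogenes are uncertain wherever libraries are compared. This includes the counts over members given for the conditions. Whether reads shared with copies or overlapping models have a part in these differences was not tested.

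Chronic replicate 2 differed over the whole set. Among the 77 subunit genes of its intermediate cells, short genes took a larger part of the member UMIs than in the other libraries, with a Spearman correlation of -0.602 between coding length and the deviation from the median of the other libraries, where the other 5 libraries gave -0.264 to 0.388. These points share a library and are given as a description. The 21 genes with at most 375 coding bases stood at a median ratio of 1.35 and the 21 genes with at least 612 coding bases at 0.835. In all, 10 members of chronic replicate 2 and 6 of acute replicate 2 were more than 2-fold off the other libraries, against 3 in healthy replicate 2, 1 in chronic replicate 1 and 0 in healthy replicate 1 and acute replicate 1. Chronic replicate 1 had the lowest member share in every class but the endothelial cells, as given next.

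**Figure D1:**
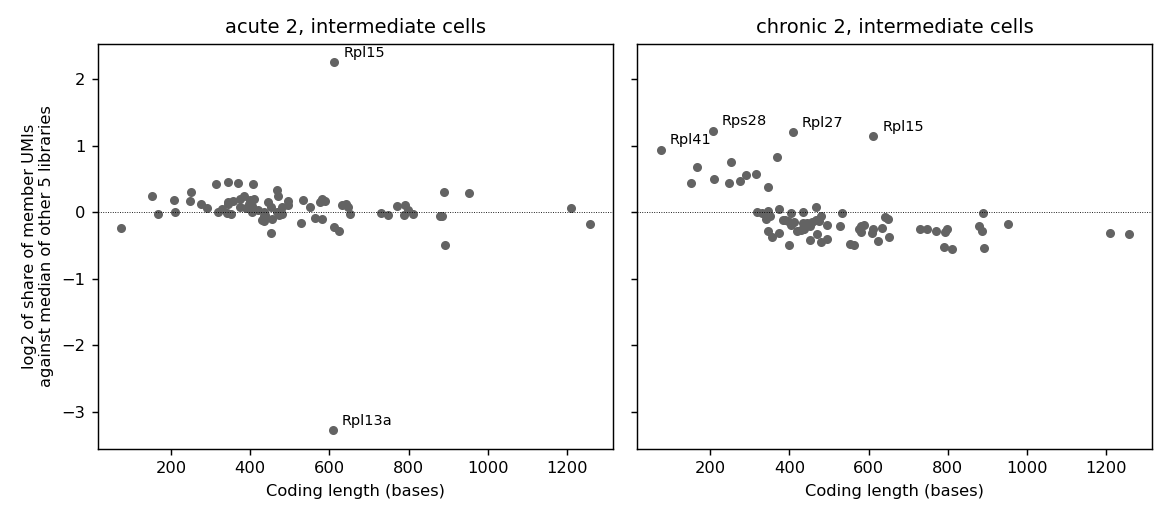
Share of the member UMIs of each of 77 subunit genes in intermediate cells of acute replicate 2 (left) and chronic replicate 2 (right), as log2 of the ratio to the median of the other 5 libraries (y axis), against coding length in bases (x axis). Acute replicate 2 holds isolated genes off the line at 0, with Rpl13a low and Rpl15 high, and chronic replicate 2 slopes from short genes above 0 to long genes below it (Spearman correlation -0.602).

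Ribosomal protein genes made up over 40% of the UMIs of an average basal or intermediate cell and under 30% of those of a stromal cell. Cells were grouped into classes named from marker genes, and the members were kept out of the clustering and of the scores that named the classes, so that the classes were not defined by them. The names stand for cells like these types. The share of a cell's UMIs in members is a relative measure, since a fall can also arise where other transcripts rise, and less RNA per cell cannot be told apart from fewer ribosomal mRNAs. The mean over libraries of the median share was 44.0% ± 5.63 in basal cells, 43.6% ± 6.14 in intermediate cells and 36.3% ± 5.71 in superficial cells (SD, n = 6 libraries). It was 27.4% ± 4.96 in fibroblasts, 23.9% ± 3.56 in myofibroblasts and 29.3% ± 5.96 in macrophages (SD, n = 6). Endothelial cells had 32.2% ± 6.17 (SD, n = 5 libraries with at least 20 cells) and NK-like cells 43.1% ± 3.04 (SD, n = 3). Mural cells reached 20 cells only in the acute libraries, with 28.6% and 23.6%.

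**Figure D2:**
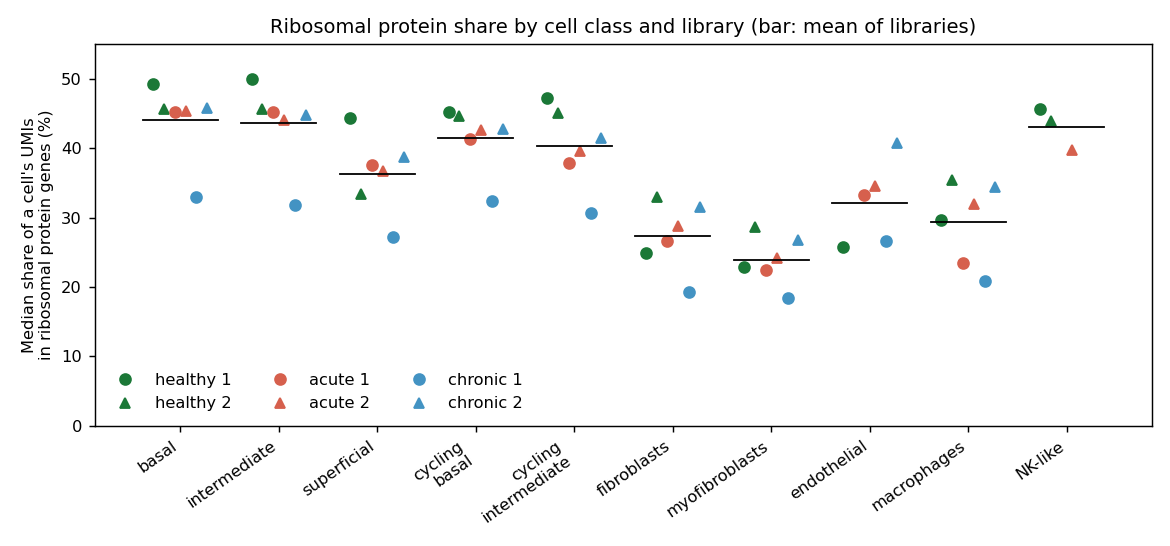
Median share of a cell's UMIs in ribosomal protein genes, in percent (y axis), in each cell class (x axis). Each point is 1 library, coloured by condition and shaped by replicate, and the bar is the mean of the libraries (44.0% in basal cells, 23.9% in myofibroblasts). Chronic replicate 1 lies lowest in 8 of the 9 classes where it is plotted.

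In superficial cells the share was lower in all 6 libraries. It was 44.4%, 33.4%, 37.6%, 36.7%, 27.3% and 38.7% in the libraries healthy 1 and 2, acute 1 and 2 and chronic 1 and 2, against 49.9%, 45.7%, 45.2%, 44.0%, 31.8% and 44.8% in the intermediate cells of the same libraries. The difference was -7.21 percentage points ± 2.73 (SD, n = 6 libraries; exact sign-flip permutation test over libraries, two-sided p = 0.03125, the smallest this design allows). Superficial cells also had more UMIs per cell, with library medians of 10103 to 22585 against 5985.5 to 12012. Among cells of 4000 to 12000 UMIs in both classes the difference was -12.0 points. This window draws on the superficial cells with fewer UMIs. Within superficial cells the share rose with UMIs in all 6 libraries (Spearman correlation over cells 0.132 to 0.479), so the window itself can lower their share. The part of cell size in this difference was not tested further.

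Gene by gene, nearly every subunit mRNA was lower in superficial than in intermediate cells. Of 89 members tested, 78 fell and 3 rose (edgeR quasi-likelihood test with the library as block, adjusted p under 0.05 over all genes tested), where 28.1% of all genes tested fell and 25.6% rose. The median log2 difference of the members was -0.34, against -0.01 for all genes. Of the small subunit genes 30 of 31 fell, of the large subunit genes 43 of 46, of the paralogs 1 of 6, with 2 higher, and of the pseudogenes 4 of 6.

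Rps27, a zinc-binding protein of the small subunit, fell furthest. It had 9809, 9059, 7111, 11290, 7569 and 14250 CPM (in the fitted comparisons after TMM scaling, which corrects for differences in composition) in the intermediate cells of healthy, acute and chronic replicates 1 and 2, and 6645, 4938, 3801, 6321, 4631 and 8307 in the superficial cells. Each superficial value lay below the intermediate value of its library, although the ranges of the classes overlapped. The log2 difference was -0.78 ± 0.06 (SE, adjusted p = 1.367e-09). Rpl18 of the large subunit went from 2495 to 4353 CPM in intermediate cells to 1480 to 2938 in superficial cells (log2 difference -0.77 ± 0.06, edgeR adjusted p = 2.392e-09). Rpl5, which carries the 5S rRNA into the large subunit and binds Mdm2 when free, went from 910.6 to 1917 CPM to 554.3 to 1161 (log2 difference -0.76 ± 0.06, edgeR adjusted p = 6.863e-09). Rpl18 and Rpl5, like Rps27, were lower in 6 of 6 libraries.

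Rps6 went the other way and was the only subunit gene that rose. Its protein is the small-subunit target of the S6 kinases and the usual readout of their activity. It had 10060, 7168, 9112, 8452, 5155 and 6746 CPM in intermediate cells and 11100, 8112, 11470, 9283, 5354 and 8350 in superficial cells, higher in 6 of 6 libraries. The log2 difference was 0.19 ± 0.05 (SE, edgeR adjusted p = 0.005636), and 0.17 with an adjusted p of 0.05171 when cells were clustered without integration. The 3 large subunit genes that passed in neither direction were Rpl41 with a log2 difference of 0.11 ± 0.05, Rplp0 with -0.12 ± 0.05 and Rpl15 with -0.12 ± 0.06 (SE).

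The ribosomal stalk, which recruits elongation factors to the large subunit, was lower in part. Rplp1 fell by 0.31 and Rplp2 by 0.36 on the log2 scale, each in 6 of 6 libraries, whereas Rplp0 stayed under the threshold as given. Of the members with the most UMIs over all libraries, Rpl32 fell by 0.31 and Rps19 by 0.26, and Rpl41 did not pass. Rpl11, which joins Rpl5 and the 5S rRNA, fell by 0.25, and Rpl23 and Rpl26, further Mdm2-binding proteins, by 0.45 and 0.24.

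Of 6 paralogs or genes of similar name tested, 2 rose and 1 fell. Rps27l, a paralog of Rps27 that p53 is known to induce, had 473.7, 595.9, 645.8, 678.2, 566.4 and 648.8 CPM in intermediate cells and 578.7, 799.8, 1247, 936.3, 728.5 and 962.5 in superficial cells. It was higher in 6 of 6 libraries (log2 difference 0.51 ± 0.07, SE, edgeR adjusted p = 9.762e-06). Rpl7l1, a relative of Rpl7 that acts in the assembly of the large subunit, rose by 0.38 ± 0.07 from 18.92 to 28.07 CPM to 25.36 to 37.31 (edgeR adjusted p = 0.0001402). Rpl22l1, a paralog of the large subunit protein Rpl22, gave 0.06 ± 0.06 and Rpl36al, a near copy of Rpl36a, -0.01 ± 0.05, neither past the threshold. Rps27rt, a retrotransposed copy of Rps27, fell by 0.69 ± 0.06, with Rps27 itself.

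**Figure D3:**
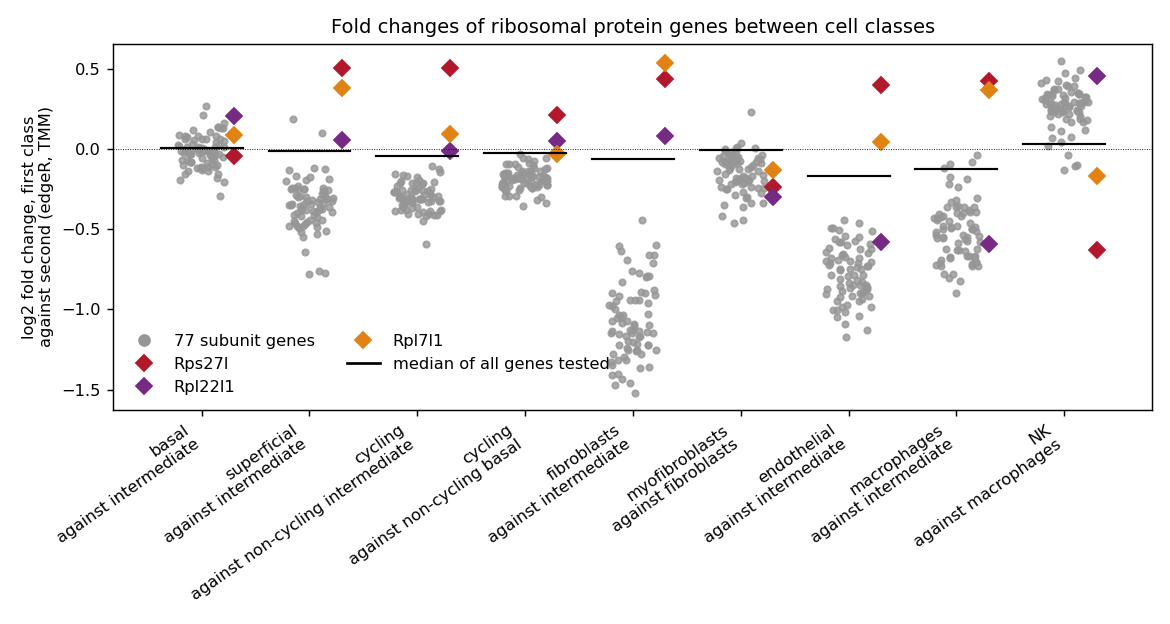
Log2 fold changes (edgeR, TMM scaling; y axis) of the 77 subunit genes (grey points) and of Rps27l, Rpl22l1 and Rpl7l1 (coloured diamonds) in 9 comparisons of cell classes (x axis). The black bar is the median of all genes tested. In superficial against intermediate cells the grey points centre near the member median of -0.34 while the diamond of Rps27l stands at 0.51, and in fibroblasts against intermediate cells the same points centre near -1.09 and the diamond stands at 0.44.

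Of the other genes of the translation machinery, taken as lists, the elongation factors shared the direction of the subunit genes. In superficial cells 4 of 7 elongation factors fell and 0 rose, with Eef2, which moves the ribosome along the mRNA, down by 0.55 ± 0.06. Among 21 mRNAs with a TOP tract outside the subunit genes 11 fell and 2 rose, led by Gnb2l1 (Rack1), a scaffold on the small subunit, which fell by 0.66 ± 0.06. The lists can share genes, so their counts are not independent. Fau, whose product is a fusion of a ubiquitin-like protein and a small subunit protein, fell by 0.32 ± 0.05. Initiation factors were mixed, with 8 up and 10 down of 31, and so were ribosome biogenesis genes, with 7 up and 12 down of 46. Eif4ebp1, which holds back cap-dependent translation and with it that of TOP mRNAs, rose by 0.71 ± 0.06 (edgeR adjusted p = 6.65e-09, 6 of 6 libraries).

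Basal cells differed little from intermediate cells as a set, and single members moved in both directions. The share differed by 0.482 points ± 0.832 (SD, n = 6 libraries, higher in 5 of 6, exact sign-flip permutation test, two-sided p = 0.15625). Of 89 members 19 rose and 26 fell in basal cells, where 25.1% of all genes rose and 23.2% fell, and the median was -0.01 against 0.01 for all genes. With scaling by library size alone the counts were 37 higher and 15 lower, where 31.5% of all genes were higher and 18.2% lower.

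Rpl5 had 1883, 2166, 1140, 1237, 1076 and 1171 CPM in basal cells of healthy, acute and chronic replicates 1 and 2 and 1705, 1902, 1012, 1057, 902.8 and 947.5 in intermediate cells. It was higher in 6 of 6 libraries (log2 difference 0.21 ± 0.03, SE, edgeR adjusted p = 9.94e-06), although the ranges overlapped. Rpl22l1 rose by 0.21 ± 0.04, Rps3a1 by 0.17 ± 0.02, Rps27 by 0.14 ± 0.03 and Rpl8 by 0.14 ± 0.03, each in 6 of 6 libraries. The largest fall was that of Rps6, from 5111 to 9969 CPM in intermediate cells to 4469 to 7593 in basal cells (-0.29 ± 0.03, edgeR adjusted p = 6.162e-08, 0 of 6 libraries higher). Rpl36 (-0.20), Rpl41 (-0.19), Rpl14 (-0.18), Rpl36al (-0.17), Rpl11 (-0.15) and Rplp1 (-0.15) were also lower in 6 of 6 libraries. Rps6 was thus lower in basal and higher in superficial than in intermediate cells, while Rpl5 and Rps27 were higher in basal and lower in superficial cells, with each of these steps past the threshold. Rps27l gave -0.04 ± 0.03 (edgeR adjusted p = 0.2486), which turned to 0.01 with scaling by library size alone.

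Of 46 genes of ribosome biogenesis tested, 21 rose and 3 fell in basal cells, with Ncl (nucleolin) up by 0.32 ± 0.04 and Nop10, a part of the pseudouridylation complex, down by 0.30 ± 0.04. Eif6, which keeps free large subunits from joining, rose by 0.54 ± 0.05, and Eif4ebp1 fell by 0.58 ± 0.04.

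Cycling urothelial cells, told by high scores of S and G2/M genes, held lower shares of member UMIs than the non-cycling cells they were compared with. The cycling intermediate cells included a sub-cluster with superficial markers (39.15% of them), while the non-cycling intermediate cells were taken without the superficial cells. This sub-cluster had 15, 11, 506, 243, 186 and 130 cells in healthy, acute and chronic replicates 1 and 2, doublets included. Cycling and layer thus cannot be told apart in the share of intermediate cells, and the share without this sub-cluster is not given here. In cycling intermediate cells the share was 47.2%, 45.1%, 37.9%, 39.6%, 30.7% and 41.5% in healthy, acute and chronic replicates 1 and 2. The difference was -3.22 points ± 2.45 (SD, n = 6 libraries, lower in 6 of 6, exact sign-flip permutation test, two-sided p = 0.03125, the smallest possible). In cycling basal cells it was 45.1%, 44.6%, 41.3%, 42.7%, 32.4% and 42.7%, a difference of -2.56 points ± 1.47 (lower in 6 of 6, the same exact p). Among cells of 4000 to 12000 UMIs the differences were -1.97 (exact p = 0.0625) and -2.32 points.

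Of 89 members 78 fell and 1 rose in cycling intermediate cells, where 17.9% of all genes fell and 15.9% rose, with a median of -0.30 against -0.04. In cycling basal cells 71 fell and 1 rose, where 11% of all genes fell and 12.3% rose, with a median of -0.18 against -0.02. Scaling by library size alone moved the median of all genes up by 0.16 and 0.10 and left 51 and 38 members lower and 3 and 2 higher, where 7.12% and 5.31% of all genes were then lower and 26% and 18.4% higher. Rps27 fell in both comparisons. It had 7460, 7979, 3494, 6433, 6309 and 9137 CPM in cycling intermediate cells against 9866, 9440, 7210, 11610, 7842 and 14620 in non-cycling ones (log2 difference -0.59 ± 0.09, SE, edgeR adjusted p = 0.0001828), and in cycling basal cells it fell by 0.34 ± 0.04. Rpl36 fell by 0.41 in cycling intermediate and by 0.35 in cycling basal cells, Rps14, whose loss in human marrow impairs red cell formation, by 0.41 in cycling intermediate cells, and Rps28 by 0.32 in cycling basal cells.

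The single member that rose in either comparison was Rps27l. In cycling intermediate cells it had 549.1, 680.8, 1376, 1067, 733.7 and 1056 CPM against 476.4, 621, 654.8, 697.5, 586.9 and 665.7 in non-cycling ones (0.51 ± 0.10, SE, edgeR adjusted p = 0.001272, 6 of 6 libraries). The gap was widest in acute replicate 1 and narrowest in the healthy libraries. Of the cycling intermediate cells 39.15% belonged to a sub-cluster that also held superficial markers, and without these cells Rps27l gave 0.07 (edgeR adjusted p = 0.5256). Without them 51 members fell and 0 rose, where 3.39% of all genes fell and 5.01% rose, Rpl5 and Rpl18 lost their call at -0.13 each (edgeR adjusted p = 0.1514 and 0.1193), and Rps27 (-0.20), Rps14 (-0.21) and Rpl36 (-0.27) kept it. In cycling basal cells Rps27l rose by 0.21 ± 0.06 (edgeR adjusted p = 0.009102, 6 of 6 libraries), a call that ended at 0.17 without acute replicate 1 and at 0.19 without chronic replicate 2 (edgeR adjusted p = 0.07446 and 0.05476). Cdkn1a, the p53 target that stops the cell cycle, rose by 0.84 ± 0.13 in cycling intermediate and by 0.68 ± 0.10 in cycling basal cells.

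Of 46 genes of ribosome biogenesis tested, 6 rose and 1 fell in cycling intermediate cells and 5 rose and 1 fell in cycling basal cells. Of all genes 15.9% and 12.3% rose and 17.9% and 11% fell in these comparisons. Nhp2, of the pseudouridylation complex, was up by 0.33 ± 0.08 in cycling intermediate cells. Eef2 fell by 0.44 ± 0.07 and 0.29 ± 0.05, and Fau by 0.42 ± 0.06 and 0.26 ± 0.04.

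The stromal cells had the lowest mean shares of member UMIs. The share in fibroblasts was 24.9%, 33.0%, 26.6%, 28.8%, 19.3% and 31.6% in healthy, acute and chronic replicates 1 and 2, or -16.2 points ± 4.91 from intermediate cells (SD, n = 6 libraries, lower in 6 of 6, exact sign-flip permutation test, two-sided p = 0.03125). Chronic replicate 2 held only 25 fibroblasts. Of 89 members 83 fell and 2 rose, where 37.2% of all genes fell and 34.2% rose, and all 77 subunit genes were among those that fell. The median was -1.09 against -0.06 for all genes. Scaling by library size alone moved the median of all genes up by 0.40 and took Rps4x to -0.02 and Rpl10 to -0.23, both then past no threshold (edgeR adjusted p = 0.9024 and 0.05526).

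The depth of the fall differed among subunit genes. Rps28, a small protein at the mRNA exit of the small subunit, had 1392, 2297, 1343, 2063, 1858 and 4690 CPM in fibroblasts against 5776, 5171, 4505, 5836, 4975 and 11090 in intermediate cells (log2 difference -1.52 ± 0.13, SE, edgeR adjusted p = 2.509e-07). Without chronic replicate 2, which is high in both classes, the 2 ranges did not overlap. Rpl36 (-1.47 ± 0.13), Rps21 (-1.46 ± 0.13), Rpl32 (-1.43 ± 0.12), Rpl28 (-1.41 ± 0.12) and Rpl37a (-1.40 ± 0.13) fell as far. At the other end, Rps4x, the X-linked small subunit gene, fell by 0.44 ± 0.12 (edgeR adjusted p = 0.004342) and Rpl10, near the peptidyl transferase centre, by 0.66 ± 0.12, each in 6 of 6 libraries.

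Rpl7l1 rose by 0.54 ± 0.12 in fibroblasts, in 5 of 6 libraries, from 21.37 to 31.63 CPM to 17.37 to 46.91 (edgeR adjusted p = 0.001617), and chronic replicate 2, with its 25 fibroblasts, was the exception. Rps27l rose by 0.44 ± 0.16 (edgeR adjusted p = 0.02487) in 4 of 6 libraries. It had 502 and 624.3 CPM in the fibroblasts of the healthy libraries, under the 531.7 and 680.2 of their intermediate cells, and 1457, 1343, 946.5 and 995.9 in those of the acute and chronic libraries, all above their intermediate cells. The call ended at an adjusted p of 0.09986, 0.08019, 0.05812 and 0.07197 without acute replicate 1, acute replicate 2, chronic replicate 1 and chronic replicate 2. Rpl22l1 gave 0.08 ± 0.13 (edgeR adjusted p = 0.5603) while its parent Rpl22 fell by 0.95 ± 0.12, and with scaling by library size alone Rpl22l1 was higher by 0.51.

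Of the other lists in fibroblasts, TOP mRNAs mostly fell and ribosome biogenesis genes moved in both directions. Of 21 TOP mRNAs 19 fell, with Fau down by 1.52 ± 0.13 and Eef1b2 by 1.31 ± 0.13, and 1 rose, Nap1l1, a histone chaperone, by 1.82 ± 0.12. Of 46 biogenesis genes 14 rose and 14 fell. Cdkn1a rose by 2.39 ± 0.25. The summed level of 10 urothelial markers in fibroblasts was 590.1 to 3179 CPM, against 6835 to 10740 in intermediate cells, so urothelial transcripts were present among the fibroblast counts, and their part in the member levels was not tested.

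Myofibroblasts, the Car3+ stromal cells with contractile genes, lay below fibroblasts. Their share was 22.9%, 28.6%, 22.4%, 24.2%, 18.4% and 26.8%, a difference of -3.47 points ± 1.63 (SD, n = 6 libraries, lower in 6 of 6, exact sign-flip permutation test, two-sided p = 0.03125). Of 87 members 13 fell and 0 rose, where 9.66% of all genes fell and 11.6% rose, with 28 members at an unadjusted p under 0.05, against 31.7% of all genes. By DESeq2 1 member rose, where 10% of all genes did. Without healthy replicate 2 the members that fell numbered 6 and without acute replicate 2 they numbered 5, where 8.54% and 7.57% of all genes fell. The median was -0.13 against 0.00. Rps4x had 5012, 6882, 6139, 5479, 2766 and 3726 CPM in fibroblasts and 3774, 4741, 3797, 3535, 2248 and 3352 in myofibroblasts (-0.46 ± 0.09, SE, edgeR adjusted p = 0.001467), and was lower in 6 of 6 libraries. Rps19, whose mutation causes Diamond-Blackfan anaemia, fell by 0.44 ± 0.10, Rpl13 by 0.42 ± 0.09, Rps9 by 0.33 ± 0.09 and Rpl22l1 by 0.29 ± 0.09. The calls of Rps9 and Rpl22l1 ended without acute replicate 2 (edgeR adjusted p = 0.05768 and 0.1102), and that of Rpl22l1 also without healthy replicate 2 or chronic replicate 1.

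Over the 6 classes with 6 libraries each and no cycling cells, namely basal, intermediate, superficial, fibroblasts, myofibroblasts and macrophages, the mean level in plain CPM, without TMM scaling, was highest in basal cells for 52 of the 77 subunit genes, in intermediate cells for 23 and in superficial cells for 2. It was lowest in myofibroblasts for 73, in superficial cells for 3 and in fibroblasts for 1. These are ranks of means, and the order varied within libraries. For these genes myofibroblasts were the lowest class in anything from 0 of 6 libraries (Rpl18) to 6 of 6 (Rpl3). The order of basal and intermediate cells depends on the scaling, since in the TMM fit 17 of 31 small and 16 of 46 large subunit genes had a higher estimate in basal cells.

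The mean share of endothelial cells stood between those of stroma and urothelium, with only 28 and 27 of these cells in chronic replicates 1 and 2. The share was 25.7%, 33.27%, 34.6%, 26.6% and 40.7% in healthy replicate 1 and the acute and chronic replicates, or -11.0 points ± 8.04 from intermediate cells (SD, n = 5 libraries, lower in 5 of 5, exact sign-flip permutation test, two-sided p = 0.0625, the smallest possible). Of 89 members 83 fell and 0 rose, where 19.7% of all genes fell and 16.8% rose, with a median of -0.75 against -0.16. Scaling by library size alone, which moved the median of all genes up by 0.43, left 41 lower and 1 higher, where 9.09% of all genes were lower and 25.5% higher. Rps26, a small subunit protein that touches the mRNA upstream of the start codon, fell furthest, by 1.17 ± 0.18 (edgeR adjusted p = 1.375e-05), from 3342 to 5029 CPM to 1255 to 3156. Rpl36 (-1.13), Rps28 (-1.09), Rpl14 (-1.04), Rplp1 (-1.04) and Rpl27a (-1.02) followed, each in 5 of 5 libraries. Rps27l gave 0.40 ± 0.19 (edgeR adjusted p = 0.09247), with 387.1 CPM in the healthy library and 973.9 to 1275 in the injured ones, and without the healthy library 0.61 (edgeR adjusted p = 0.001555). The urothelial markers summed to 1643 to 6319 CPM in these cells, against 6835 to 10740 in intermediate cells. In chronic replicate 2, which had the highest share, they summed to 6319 CPM, against 7606 in its intermediate cells. The endothelial markers summed to 972.8 CPM in the endothelial cells of that library, against 2311 to 4364 in the others. The part of urothelial transcripts in the share was not tested.

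Macrophages were lower than intermediate cells as well. The share was 29.6%, 35.4%, 23.5%, 32.0%, 20.8% and 34.5%, or -14.3 points ± 5.28 (SD, n = 6 libraries, lower in 6 of 6, exact sign-flip permutation test, two-sided p = 0.03125). Of 89 members 78 fell and 1 rose, where 28.6% of all genes fell and 24.9% rose, with a median of -0.51 against -0.12. Rpl36 had 3856, 3257, 2960, 4907, 2362 and 5181 CPM in macrophages against 7005, 6103, 5971, 8541, 4728 and 9033 in intermediate cells (-0.90 ± 0.07, SE, edgeR adjusted p = 3.118e-10). Rpl14 (-0.82), Rps21 (-0.81), Rpl37 (-0.78) and Rpl41 (-0.78) also fell in 6 of 6 libraries. Rps4x (-0.17), Rps24 (-0.12), Rpl7a (-0.09), Rpl10 (-0.08) and Rps9 (-0.03) were the subunit genes that did not pass. Rps27l rose by 0.43 ± 0.09 (edgeR adjusted p = 0.0004841, 6 of 6 libraries) and Rpl22l1 fell by 0.59 ± 0.08. The urothelial markers summed to 2107 to 5346 CPM here.

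NK-like cells, with at least 20 cells in 3 libraries, held a larger share of member UMIs than macrophages. The share was 45.6%, 43.9% and 39.7% in healthy replicates 1 and 2 and acute replicate 2, a difference of 10.7 points ± 4.60 (SD, n = 3 libraries, higher in 3 of 3, exact sign-flip permutation test, two-sided p = 0.25, the smallest possible). Of 87 members 41 rose and 1 fell, where 6.81% of all genes rose and 12.9% fell, with a median of 0.28 against 0.03. The calls rest on single libraries and on the model, as 3 rose without healthy replicate 1, 6 without healthy replicate 2, 16 without a filter on low counts and 0 by DESeq2, where 4.5%, 4.27%, 3.44% and 2.05% of all genes rose. Rps27 had 7998, 8101 and 10340 CPM in NK-like cells against 6016, 5524 and 7184 in macrophages (0.50 ± 0.07, SE, edgeR adjusted p = 0.0007061), with no overlap of the ranges. Rpl13a rose by 0.56 ± 0.07, Rpl12, of the stalk base, by 0.48 ± 0.10, Rps18 by 0.44 ± 0.08 and Rpl22l1 by 0.46 ± 0.14. Rps27l was the single member that fell, by 0.63 ± 0.17 (edgeR adjusted p = 0.02842), from 684.3, 625.2 and 1066 CPM in macrophages to 426, 486.3 and 597.4. This call ended without healthy replicate 1, without acute replicate 2, with library-size scaling and by DESeq2 (adjusted p = 0.1065, 0.09298, 0.05804 and 0.1292). Cdkn1a fell by 1.28 ± 0.22. The urothelial markers summed to 4512, 5068 and 3042 CPM in NK-like cells and to 2186, 2289 and 2107 in the macrophages of the same libraries, so they were higher where the member share was higher, and their part in it was not tested. The comparisons with intermediate cells given so far share the intermediate cells of the same libraries and are not independent of each other.

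The levels of Rps27l and Rps27 ran in different orders over the classes. Without TMM scaling, as plain CPM in each class, Rps27l averaged 1144 ± 459 in fibroblasts, 1102 ± 344 in endothelial cells (n = 5), 972 ± 372 in cycling intermediate cells, 926 ± 256 in myofibroblasts, 904 ± 249 in superficial cells, 825 ± 175 in macrophages, 740 ± 169 in cycling basal cells, 590 ± 77.9 in basal cells, 587 ± 88.4 in intermediate cells and 505 ± 97.9 in NK-like cells (SD, n = 3 for NK-like cells and 6 elsewhere unless given). No neighbours in this order differed by more than the larger of their SDs. Rps27 averaged 10940 ± 3083 in basal cells, 9541 ± 2498 in intermediate cells, 5900 ± 1542 in superficial cells and 5783 ± 2635 in fibroblasts. Per 100 UMIs of Rps27, Rps27l had 5.64 ± 1.41 in basal cells, 6.42 ± 1.70 in intermediate cells, 16.6 ± 8.42 in superficial cells and 22.5 ± 14.3 in fibroblasts (SD, n = 6), with the highest value of each in acute replicate 1. The ratio is compared only between classes of the same libraries, since the counts of chronic replicate 2 varied with coding length.

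**Figure D4:**
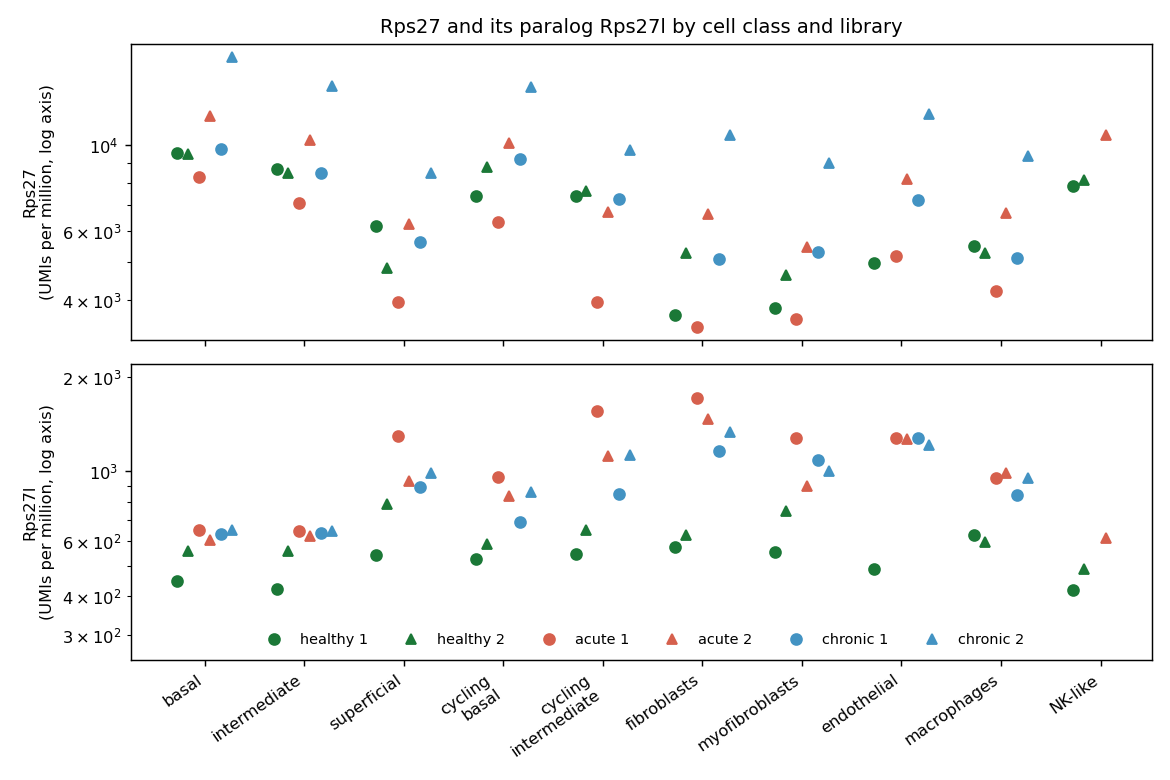
Rps27 (top) and Rps27l (bottom) in plain CPM, without TMM scaling, on a log axis (y axis) by cell class (x axis). Each point is 1 library, coloured by condition and shaped by replicate. Rps27 is highest in basal and intermediate cells, and Rps27l reaches its highest values in the injured libraries of fibroblasts (1156 to 1708), where the healthy libraries lie at 573.4 and 627.2.

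The other paralogs followed other orders. Rpl22l1 had 75.1 ± 20.4 UMIs per 100 of Rpl22 in intermediate cells, 104 ± 34.7 in superficial cells, 152 ± 34.2 in fibroblasts, 135 ± 35.1 in myofibroblasts, 67.8 ± 20.7 in macrophages and 102 ± 20.8 in cycling basal cells (SD, n = 6). The mean ratio lay above 100 in both stromal classes, in superficial cells and in cycling basal cells, with 3 of the 6 superficial values below 100 (74, 62.7 and 90.9). Also below 100 were cycling basal cells of healthy replicate 2 and chronic replicate 2 (67.3 and 94.0). The same held for myofibroblasts and fibroblasts of healthy replicate 2 (76.8 and 99.9). In healthy replicate 2 the ratio was the lowest of the 6 libraries in each of these classes. Rpl36al had 40.7 ± 10.1 per 100 of Rpl36a in intermediate cells and 31.8 ± 8.45 in fibroblasts, with acute replicate 2 lowest in each. Rps27rt had 4.33 to 4.92 per 100 of Rps27 in the means of 6 classes of urothelium and fibroblasts, but 2.27 in acute replicate 2 and 9.03 in chronic replicate 2 over the non-cycling urothelium. The value for Rps27rt thus moved with the library and hardly with the class. Rpl39l, a paralog of Rpl39 known from the testis, had 29 UMIs in all intermediate cells together and was too low to be tested between classes, and Rpl3l and Rpl10l, known from muscle and testis, were at or under 0.0893 CPM in the tables that list them. Rps19bp1, which is no ribosomal protein but binds Rps19, had 38.6 ± 3.92 CPM in intermediate cells and 53.3 ± 13.4 in fibroblasts.

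The comparison of injured with healthy bladders asked whether these genes differed between them within a class. The study's methods state that the samples were processed and sequenced in batches. Which libraries shared a batch is not given in the sources used here, so CPP and batch cannot be told apart. With 2 libraries a group, an exact permutation test cannot go below p = 0.333, and the acute and chronic groups share the healthy libraries. The share in the non-cycling urothelium was 49.6% and 45.6% in the healthy, 44.7% and 44.1% in the acute and 31.6% and 44.7% in the chronic libraries. All 4 injured values lay below both healthy values, by 3.16 points for the acute mean and 9.43 points for the chronic mean (exact permutation test, two-sided p = 0.333 each). Leaving out each library in turn gave chronic differences of -16.0 to -2.89 points, the last of these without chronic replicate 1. The acute difference was -1.16 without healthy replicate 1 and -5.17 without healthy replicate 2. In fibroblasts the acute and chronic means lay 1.21 and 3.49 points below the healthy mean (exact p = 1 and 0.667) and in myofibroblasts 2.43 and 3.12 points (exact p = 0.667 each), with overlapping groups. These directions rest on single libraries, since without healthy replicate 2 the acute and chronic fibroblasts stood at 2.86 and 0.581 points and the acute myofibroblasts at 0.422 points above the healthy value left, and without chronic replicate 1 the chronic fibroblasts and myofibroblasts at 2.63 and 1.06 points above the healthy mean.

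No member passed in any of these 6 comparisons. In the urothelium edgeR called 0 of 90 members higher or lower in acute and in chronic bladders, where it called 0% of all genes in either direction. At an unadjusted p under 0.05 there were 5 members in acute and 41 in chronic urothelium, where 3.14% and 6.97% of all genes stood under it. DESeq2 called 1 and 11 members lower and 0 higher, where it called 0.0146% and 0.306% of all genes lower and 0.153% and 0.509% higher. In fibroblasts edgeR called 0 of 89 members, where 0.0812% of all genes were called higher and 0.00902% lower in acute and 0.108% and 0.00902% in chronic fibroblasts, with 2 and 7 members at an unadjusted p under 0.05, against 3.89% and 5.67% of all genes. In myofibroblasts it called 0 of 87, where 0% and 0.0121% were called higher and lower in acute and 0% in chronic myofibroblasts, with 1 and 6 members at an unadjusted p under 0.05, against 2.88% and 6.42% of all genes. DESeq2 called 0 members in both stromal classes. The median log2 difference of the members was -0.17 in acute and -0.58 in chronic urothelium, against -0.01 and 0.01 for all genes, and scaling by library size alone moved the median of all genes in the chronic urothelium by 0.22. Single libraries moved the members' medians and counts, and the share of all genes under an unadjusted p of 0.05 was not counted without each library. The acute median was -0.06 without healthy replicate 1 and -0.27 without healthy replicate 2, and the chronic one was -0.34 without chronic replicate 1 and -0.87 without chronic replicate 2. The 41 members at an unadjusted p under 0.05 in chronic urothelium became 17 without healthy replicate 1, 26 without healthy replicate 2 and 61 without chronic replicate 2, and the 5 in acute urothelium became 1 without either healthy replicate, 2 without acute replicate 2 and 10 without either chronic replicate. In chronic fibroblasts and myofibroblasts such counts ran from 1 without healthy replicate 2 to 34 and 31 without chronic replicate 2, and in acute ones from 1 to 6 and from 0 to 5.

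Rpl5 had the most regular difference in the urothelium. It had 1696 and 1939 CPM in the healthy, 961.9 and 1034 in the acute and 861.4 and 916.1 in the chronic libraries, so that the healthy values lay apart from all others. The log2 differences were -0.86 ± 0.20 in acute and -1.03 ± 0.20 in chronic urothelium (SE, edgeR adjusted p = 0.9998 and 0.4149, DESeq2 adjusted p = 0.01183 and 0.000121). Rpl23 had 8698 and 8866 CPM in the healthy, 6067 and 6757 in the acute and 3258 and 5147 in the chronic libraries (chronic log2 difference -1.06 ± 0.27, edgeR adjusted p = 0.5898). For Rps4x the values were 6986 and 5713, 5515 and 5369, and 2967 and 3643 (chronic -0.94 ± 0.22, edgeR adjusted p = 0.5712), and for Rpl26 the chronic difference was -0.78 ± 0.27 (edgeR adjusted p = 0.6613), or -0.51 without chronic replicate 1. The chronic values of each lay below its acute and healthy ones, and chronic replicate 1, with the lowest member share, had the lowest value of each. Rpl22l1 gave 0.36 ± 0.25 in acute urothelium, with 1657 and 1146 CPM in the healthy and 1869 and 1717 in the acute libraries, and moved to 0.64 without healthy replicate 1 and 0.11 without healthy replicate 2.

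**Figure D5:**
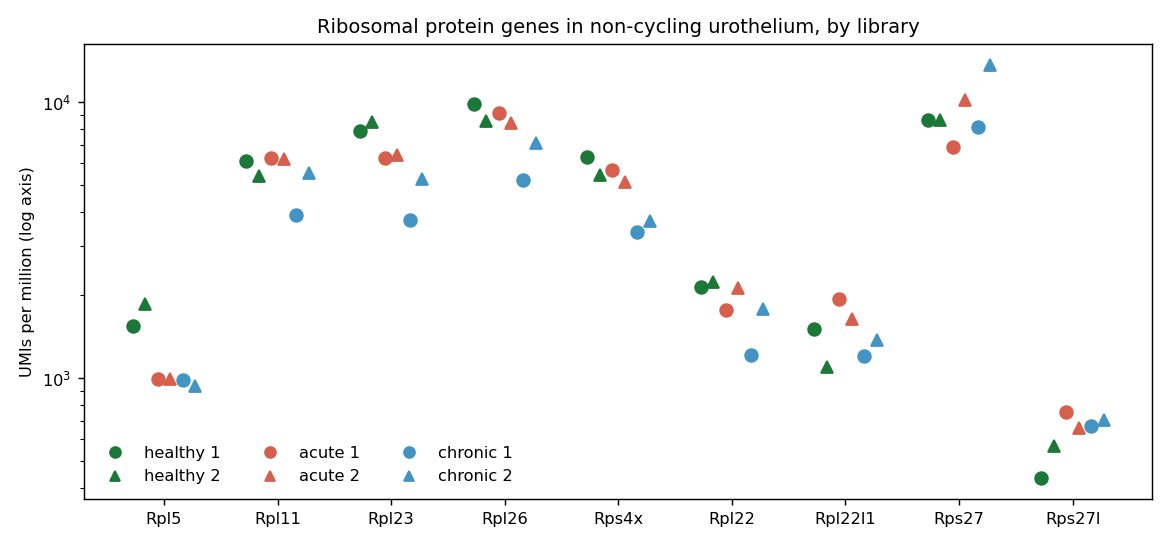
Plain CPM, without the TMM scaling of the values in the text above, of 9 ribosomal protein genes (x axis) in the non-cycling urothelium. The y axis is a log axis, with 1 point per library, coloured by condition and shaped by replicate. For Rpl5 the healthy libraries (1538 and 1853) lie above the injured ones (936.7 to 992.2), and for Rps27l they lie below (432.4 and 566.9 against 657.6 to 750.8).

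Rps27l lay higher in the injured than in the healthy stroma, without passing the test. In fibroblasts it had 570.1 and 695.4 CPM in the healthy, 1748 and 1543 in the acute and 1058 and 1246 in the chronic libraries, with no overlap of healthy and injured values. The log2 differences were 1.38 ± 0.36 and 0.86 ± 0.36 (SE, edgeR adjusted p = 0.3628 and 0.8325), neither past the threshold. In myofibroblasts they were 0.70 ± 0.31 and 0.62 ± 0.31 and in the urothelium 0.40 ± 0.21 and 0.25 ± 0.21. Single libraries moved these values, to 0.42 in acute myofibroblasts without acute replicate 1, and without healthy replicate 1 to 0.36 in chronic myofibroblasts, 0.25 in acute and 0.10 in chronic urothelium. The chronic urothelium also gave 0.42 without healthy replicate 2 and 0.14 without chronic replicate 2. The p53 targets Cdkn1a and Mdm2, from the list of regulators, had log2 differences of 2.41 ± 0.47 and 2.52 ± 0.65 in acute and of 2.55 ± 0.47 and 2.54 ± 0.67 in chronic fibroblasts, also past no threshold (edgeR adjusted p = 0.1223, 0.3589, 0.1228 and 0.4702). The values of Cdkn1a were 419.9 and 365.7 CPM in healthy and 1332 to 2909 in injured fibroblasts, again without overlap, and their part in the level of Rps27l was not tested.

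Counted over 8 classes with 6 libraries each, and without a test, Rps27l was the only member whose 4 injured libraries all lay above both healthy ones in 8 of 8 classes. The classes come from the same 6 libraries, so they are not 8 independent views, and genes with a mean of at least 50 CPM, without TMM scaling, were counted. How many of all genes lay apart in 8 of 8 or 7 of 8 classes was not counted. In single classes 5.93% to 27.4% of all genes were higher and 1.6% to 4.75% lower in all injured libraries. In intermediate cells Rps27l had 419.5 and 557.7 CPM in the healthy and 619.1 to 646.6 in the injured libraries, in superficial cells 540.1 and 782.9 against 887.7 to 1299, in myofibroblasts 550.3 and 749 against 896.5 to 1276 and in macrophages 624.1 and 595.6 against 839.1 to 989.7. In the other direction Rpl21, Rplp1, Rps12 and Rps25 had all 4 injured libraries below both healthy ones in 8 of 8 classes, and Rpl5, Rpl18, Rps15, Rps20 and Rpsa in 7 of 8. Rpl5 had 1524 and 1794 CPM in healthy and 951.5 to 1020 in injured intermediate cells, and 998.5 and 1288 against 687.5 to 742.4 in macrophages.

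The share of members that lay apart in this way was read against all genes of that level. In intermediate cells 28 of 85 members were lower and 2 higher in all injured libraries, where 2.08% of all genes were lower and 15.3% higher. In basal cells it was 26 and 3 of 85 (2.59% and 12.8%), in superficial cells 12 and 2 of 84 (1.6% and 14.5%), in cycling basal cells 21 and 4 of 85 (3.91% and 13.1%) and in cycling intermediate cells 43 and 4 of 85 (4.75% and 27.4%). Outside the urothelium it was 11 and 5 of 85 in fibroblasts (4.55% and 8.62%), 14 and 2 of 83 in myofibroblasts (3.69% and 5.93%) and 32 and 1 of 84 in macrophages (3.28% and 10.1%). The share of members lower in all injured libraries thus exceeded that of all genes in each of the 8 classes. The members of a library are not independent, since many were low together in chronic replicate 1, where the member share was low. Not all were, as Rpl41 had 11710 CPM there over all cells, against 11140 and 10580 in healthy replicates 1 and 2. Rpl15 was higher in 5 of 8 classes, and its level differed between libraries as described.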

How the data were processed

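The authors deposited a table of UMI counts per gene and cell barcode for each of 6 libraries, made with Cell Ranger on the mm10 genome (per the labels and the study's methods). Healthy replicate 1 ends in a shortened last line, and the members and gene lists were chosen with earlier results of these data known.

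Cells with at least 500 genes and at most 10% mitochondrial UMIs were kept, 55398 in all. The cells with the highest Scrublet scores were called doublets, with their number set beforehand at 0.8% per 1000 cells of the library. This made 4.28% to 11.1% of the cells of a library, which is a setting and not a measured rate. These cells and 1 cluster of 2013 cells, 49.58% of them called, were left out, which left 49914. Libraries shared 36 to 208 barcodes in pairs, at most 2.04%. Clustering used Seurat 5.3.0 and sctransform 0.4.2 integration of 3000 genes, without the members and mitochondrial genes, and Leiden clusters named from marker genes. Basal and intermediate cells were split by a score, with 8.46% of urothelial cells within 0.1 of the split, and 113 cycling mesenchymal cells were left out.

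Counts were summed per class and library with at least 20 cells. Classes were compared with edgeR 4.0.16 (quasi-likelihood test, TMM, library as block, Benjamini-Hochberg over all genes tested) and conditions over 2 against 2 libraries. Shares were compared by exact sign-flip or permutation tests. The study calls the libraries of a condition biological replicates but the sources used here do not tie mice to libraries, and p-values measure the spread between libraries. Alternatives were DESeq2 1.42.0, library-size scaling, TMM without the members, no filter on low counts, doublets kept, no integration, and each library left out in turn. On simulated counts of superficial against intermediate cells (11766 genes), 96.5% of 4-fold changes were recovered, and 74% of those in acute urothelium (13633 genes). In these runs 18 and 15 unchanged genes were called. Smaller changes, like those given for the members, were not simulated, so their recovery is not known. The named genes were, per comparison, the 6 members with the largest rise and fall past the threshold, a mean of at least 50 CPM and the same direction in every library, then the paralogs and their parents, the stalk and Mdm2-binding proteins, the 3 members with the most UMIs, and the largest rise and fall of each other list. Genes named beyond these were chosen after their values were seen. Some members that met the rule are not reported here by name.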

Additional observations from a re-analysis of the deposited data

Results flagged for a closer look

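The level of Rps27l in fibroblasts against intermediate cells differed in direction between conditions. The mean log2 ratio was -0.10 in the healthy libraries, with both below 0, and 0.91 in the acute and 0.51 in the chronic libraries, with all of them above 0. The difference between the conditions was not tested.

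For Rpl36al in superficial against intermediate cells the mean log2 ratio was 0.05 in the healthy libraries, both above 0, and -0.07 in the acute libraries, both below 0. This difference was not tested either, and Rpl36al was low in acute replicate 2 in every class.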

How the results depend on the processing

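Of the differences in share, 169 values were counted as unchanged, and all of these kept their direction. Values with a library left out were not held to the threshold in this count. With 5 libraries or fewer the exact p cannot go below 0.0625, so none of those values could pass it. Among cells of 4000 to 12000 UMIs the exact p of the share rose to 0.0625 in cycling intermediate cells (-1.97 points) and in fibroblasts (-17.5, 5 libraries) and to 0.125 in myofibroblasts (-3.76, 4 libraries), and the acute fibroblasts and chronic myofibroblasts turned to 0.0315 and 2.13. A stricter cycling split gave -5.78 (exact p = 0.0625) and summed UMIs gave -3.45 for myofibroblasts (exact p = 0.0625). Fewer libraries explain the p of 3 of these, and for the others the cause was not tested. Without healthy replicate 2 the share of acute and chronic fibroblasts turned to 2.86 and 0.581 and that of acute myofibroblasts to 0.422, and without chronic replicate 1 that of chronic fibroblasts and myofibroblasts turned to 2.63 and 1.06. Leaving out each library gave -5.28 to 2.86 in acute and -9.61 to 2.63 in chronic fibroblasts, -5.28 to 0.422 and -7.30 to 1.06 in myofibroblasts, -5.17 to -1.16 and -16.0 to -2.89 in urothelium, and -7.76 to -6.20 in superficial cells.

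Counts of members, higher and lower, moved with scaling by library size alone to 37 and 15 in basal cells (31.5% and 18.2% of all genes). They moved to 3 and 51 in cycling intermediate (26% and 7.12%) and 2 and 38 in cycling basal cells (18.4% and 5.31%). In superficial cells 5 were higher (32%) and in fibroblasts 4 (47.5%). Endothelial cells had 1 and 41, with the shares of all genes given above. NK-like cells had 66 and 0, where the median of all genes went from 0.0309 to 0.147 and their share is not given here. Without the superficial-like cycling cells, an alternative chosen after seeing the data, the counts in cycling intermediate cells were 0 and 51 (5.01% and 3.39%). With DESeq2 1 was higher in myofibroblasts (10% of all genes), 0 and 0 passed in NK-like cells (2.05% and 8.53%), and 1 and 11 were lower in acute and chronic urothelium. Without a filter 22 were lower in myofibroblasts (8.63% of all genes), 2 higher in macrophages (20.9%), 16 higher in NK-like cells (3.44%), 1 and 1 in acute (0.42% and 0.308%) and 2 higher in chronic myofibroblasts (0.427%). Without integration 20 were lower in myofibroblasts (7.82%) and 1 higher in fibroblasts (33.2%), and with doublets kept 2 were higher in macrophages (26.2%). Leaving out each library gave 3 to 39 higher and 0 to 1 lower in NK-like cells and 0 to 1 and 69 to 85 in endothelial cells. Fibroblasts had 1 to 2 and 83, and macrophages 1 to 2 and 77 to 79. For these classes the share of all genes is not given here. Basal cells had 12 to 22 and 19 to 27 (21.7% to 24% and 20.6% to 22% of all genes). Cycling basal cells had 0 to 1 and 55 to 73 (7.06% to 13.6% and 5.7% to 13.1%). Cycling intermediate cells had 1 and 70 to 77 (11.7% to 17% and 11.1% to 18.6%). Superficial cells had 3 and 76 to 79 (21.8% to 24.7% and 25.2% to 29.2%). Leaving out each library gave 5 to 17 lower in myofibroblasts (7.57% to 10.3%). In conditions it gave 0 to 1 higher and 0 to 2 lower in acute fibroblasts, 0 to 1 higher in chronic fibroblasts, 0 to 2 lower in acute myofibroblasts and 0 to 1 lower in acute urothelium.

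Of single genes, 1209 values were unchanged in call and direction, 41 lost and 12 gained a call, and 7 reversed, none of them past the threshold. These were, by library size alone, Rps27l in basal (0.01), Rpl36al in superficial (0.07) and Rpl41 in cycling intermediate cells (0.05), Rpl36al with TMM without the members (0) and without acute replicate 1 (0.01), and, without healthy replicate 2, Rpl22l1 in fibroblasts (-0.01) and Rpl5 in chronic myofibroblasts (0.02). Leaving out each library gave -0.04 to 0.01, -0.01 to 0.16 and -0.57 to 0.02 for these 3 genes in the comparisons named last. The labels give the same replicate numbers no shared origin, and with 2 libraries a group the numbers were not taken to pair them. Correlations of the deviations were 0.131 to 0.417 between healthy and acute and -0.305 to -0.018 between healthy and chronic libraries. A fit with the replicate number as block called 0 members in each of the 6 comparisons of conditions.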
